A study of Mus musculus with 9 samples.

Results

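The genes that make, break down and sense prostaglandins were followed through 3 tissues of mice given paclitaxel and an antagonist of the lymphotoxin-beta receptor. They are 10 of the 22609 genes in the count files, taken by name from a list of 5 enzymes (Ptgs1, Ptgs2, Ptges, Ptgds and Hpgd) and 5 receptors (Ptger1, Ptger2, Ptger3, Ptger4 and Ptgir). All 10 had enough reads to be tested.

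Prostaglandins are short-lived lipids made from arachidonic acid, which phospholipases and lipases release from membrane lipids. The cyclooxygenases, encoded by Ptgs1 and Ptgs2, turn it into prostaglandin H, which terminal synthases convert to the prostaglandins D, E, F and I (prostacyclin) or to thromboxane. Each product acts on its own G protein-coupled receptors, and 15-hydroxyprostaglandin dehydrogenase, encoded by Hpgd, inactivates prostaglandins taken up by cells. Prostaglandin E and prostacyclin are known for sensitising the endings of pain-sensing neurons in inflamed skin and for facilitating pain transmission in the spinal cord, and the cyclooxygenases are the targets of aspirin-like drugs.

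The samples were dorsal root ganglia (DRG) of L3 to L5, the site of sensory neuron cell bodies, lumbar spinal cord, and punches of the hind paw, with 3 libraries each. All came from male C57 mice aged 8 to 12 weeks that received 2 intraperitoneal injections of 2 mg/kg paclitaxel, a chemotherapy drug that stabilises microtubules and can cause painful neuropathy. All also received the antagonist, at 15 µg per site, into the paw and intrathecally, and tissue was taken 6 days after the last paclitaxel dose. The sample titles put the antagonist on days 1 and 4, while in the series text it came once between the 2 paclitaxel injections and once a day later. Since all 9 libraries had the same treatment, the comparisons are between tissues, and no effect of the drug or the antagonist was measured. No label ties the 3 samples of a tissue to separate mice, and the p-values reflect only how these samples vary.

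The libraries held 15537545 to 23229724 reads assigned to genes, and 3 reads, taken as the floor of detection, equalled 0.134 to 0.185 CPM, a gene's reads scaled to the size of its library. The tissue labels were checked against marker genes. All 10 sensory neuron genes were called higher in DRG than in spinal cord, all 8 oligodendrocyte and all 6 astrocyte genes higher in spinal cord than in DRG, and all 8 keratinocyte genes higher in paw than in either other tissue. The paw punches also held skeletal muscle transcripts, at a summed 13300 to 17000 CPM for 6 genes. Libraries of a tissue differed in their cell make-up. Markers of leptomeninges and choroid plexus were highest in DRG library 1 for 11 of 11 genes and in spinal cord library 3 for 11 of 11 genes, and the summed muscle genes ranged from 31.6 to 942 CPM among the DRG libraries. In whole tissue, fewer cells of a type and less RNA per cell cannot be told apart.

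Promoters are shown for Ptgs1, Ptgs2 and Hpgd, because these 3 enzymes had the same order of tissues, lowest in DRG and highest in paw. Each runs from 250 bases before to 50 bases after the transcription start, on the plus strand of RefSeq's mouse assembly GRCm38.p6. Capitals mark matches, on either strand, to 5 textbook promoter motifs, namely the TATA box as TATAAA, the CCAAT box, the GC box as GGGCGG, the E-box as CACGTG and the cyclic AMP response element as TGACGTCA. No matches overlap in the printed windows.
Ptgs1 (chr2:36230176-36230475): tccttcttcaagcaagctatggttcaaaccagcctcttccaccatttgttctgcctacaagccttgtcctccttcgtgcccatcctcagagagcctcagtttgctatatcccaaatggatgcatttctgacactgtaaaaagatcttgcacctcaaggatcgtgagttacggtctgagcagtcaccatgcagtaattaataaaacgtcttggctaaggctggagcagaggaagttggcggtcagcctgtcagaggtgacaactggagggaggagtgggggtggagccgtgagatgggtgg
Ptgs2 (chr1:150099781-150100080): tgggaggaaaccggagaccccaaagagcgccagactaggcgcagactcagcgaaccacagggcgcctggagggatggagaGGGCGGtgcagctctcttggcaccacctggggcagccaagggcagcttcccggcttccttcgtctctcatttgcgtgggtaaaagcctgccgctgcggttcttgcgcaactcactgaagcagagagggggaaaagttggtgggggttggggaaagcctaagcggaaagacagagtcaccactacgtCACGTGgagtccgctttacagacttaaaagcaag
Hpgd (chr8:56294302-56294601): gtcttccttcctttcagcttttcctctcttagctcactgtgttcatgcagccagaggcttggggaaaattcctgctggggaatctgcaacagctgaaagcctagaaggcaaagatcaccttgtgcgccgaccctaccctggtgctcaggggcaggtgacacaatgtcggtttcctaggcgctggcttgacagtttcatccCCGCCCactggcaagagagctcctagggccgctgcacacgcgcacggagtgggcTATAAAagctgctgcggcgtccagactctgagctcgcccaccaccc
The Ptgs1 window held none of the 5 motifs. The Ptgs2 window held a GC box 170 bases before the start and an E-box from base 17 after it. The Hpgd window held a GC box on the minus strand, 50 bases before the start, and a TATA box from base 5 after the start used for the window. The gene models from GENCODE begin Hpgd further on, at chr8:56294585, and this TATA box lies before that start. Over 32544 promoter windows of this length, 13.6% held the TATA box, 37.4% the CCAAT box, 35.9% the GC box, 7.17% the E-box and 1.8% the cyclic AMP response element. Among the 9 of these genes with a window in the table, 1, 2, 6, 1 and 0 held them, in that order. The GC content of the printed windows was 50.7% for Ptgs1, 59.3% for Ptgs2 and 58.0% for Hpgd, against a median of 53.0% over all windows. A match is a stretch of letters and shows no binding.

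Ptgs1 encodes cyclooxygenase-1, the form made in many resting tissues. In the 3 paw libraries it stood at 94.7, 91.8 and 82.4 CPM, in spinal cord at 13.6, 13.7 and 13.7 CPM, and in DRG at 3.93, 3.28 and 3.76 CPM. No library of one tissue overlapped another, and paw was the highest. The log2 fold change between paw and DRG was 4.61 ± 0.11 (SE), or 24.4-fold, with an adjusted p of 1.62e-11. Here and below, adjusted p-values come from edgeR's quasi-likelihood test with Benjamini-Hochberg adjustment over 16091 genes, and a gene is called at an adjusted p under 0.05. Ptgs1 was also 6.56-fold higher in paw than in spinal cord (log2 2.71 ± 0.10, adjusted p = 2.43e-10) and lower in DRG than in spinal cord (log2 -1.90 ± 0.11, adjusted p = 5.85e-08). Its 3 spinal cord values were unusually close, with a highest-to-lowest ratio of 1.01, and 0.219% of 11861 genes in that tissue had a smaller ratio.

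Ptgs2 encodes cyclooxygenase-2, the inducible form that rises in inflammation. Its reads numbered 210, 133 and 163 in paw, 26, 23 and 38 in spinal cord, and 6, 1 and 3 in DRG, so that 2 of the 3 DRG libraries were at or under the floor. In CPM these were 12.6, 8.21 and 9.6 in paw, 1.3, 1.07 and 2.18 in spinal cord, and 0.268, 0.0483 and 0.149 in DRG. The order was that of Ptgs1, again with no overlap between tissues. Ptgs2 was higher in paw than in spinal cord by a log2 of 2.75 ± 0.31 (adjusted p = 5.01e-06). The contrasts with DRG rest on few reads. Between paw and DRG the log2 difference was 5.95 ± 0.42 (adjusted p = 8.21e-08), and 6.60 without DRG library 1 (adjusted p = 7.29e-07). Between DRG and spinal cord it was -3.20 ± 0.48 (adjusted p = 1.55e-04), and -3.85 without that library (adjusted p = 3.38e-04).

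Hpgd, the inactivating dehydrogenase, followed the same order. It was at 48.2, 55.4 and 45.8 CPM in paw, 11.5, 14.4 and 12.6 CPM in spinal cord, and 6.84, 5.69 and 5.15 CPM in DRG. The 3 groups did not overlap. Paw exceeded DRG by a log2 of 3.08 ± 0.14 (adjusted p = 1.90e-09) and spinal cord by 1.95 ± 0.13 (adjusted p = 5.70e-08), and DRG lay below spinal cord (log2 -1.12 ± 0.14, adjusted p = 3.47e-05). The sums of markers of keratinocytes, macrophages and endothelium had this order, but not all of their genes. The 8 keratinocyte genes summed to 33600 to 50800 CPM in paw, 33.6 to 37.7 in spinal cord and 14.1 to 27.1 in DRG, and the 7 macrophage genes to 235 to 270, 126 to 141 and 58.8 to 93.4 CPM. Between DRG and spinal cord, 3 of the 8 keratinocyte genes were called lower in DRG and 5 were not called, with Dsg3 at 0 reads in 2 libraries of each of the 2 tissues. Of the macrophage genes, Csf1r was called lower in DRG and 4 (Mrc1, Cd163, Lyve1 and Ms4a7) were called higher. The Csf1r level of 111 ± 2.48 CPM in spinal cord, against 34.8 ± 7.55 in DRG (SD, n = 3), made up most of the spinal cord sum. Their part in the levels of Ptgs1, Ptgs2 and Hpgd was not tested.

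Ptges encodes the inducible microsomal prostaglandin E synthase, which works downstream of the cyclooxygenases. Its order differed from theirs, with spinal cord lowest. The libraries held 31.5, 27.6 and 30.0 CPM in paw, 16.4, 14.4 and 12.7 CPM in DRG, and 4.15, 3.87 and 6.54 CPM in spinal cord, without overlap. DRG exceeded spinal cord by a log2 of 1.59 ± 0.19 (adjusted p = 2.09e-05), paw exceeded DRG by 1.03 ± 0.17 (adjusted p = 1.55e-04), and paw exceeded spinal cord by 2.62 ± 0.19 (adjusted p = 9.47e-08). The sum of 8 fibroblast and matrix genes had the same order of tissues, at 4860 to 6250 CPM in paw, 2270 to 3360 in DRG and 410 to 1190 in spinal cord, with no gene at 0 in any library. By gene, 6 of the 8 were called higher in DRG than in spinal cord and 2 (Pdgfra and Fbln1) lower, and between paw and DRG 4 were called higher in paw and 4 (Dcn, Lum, Col1a1 and Col1a2) were not called. Spinal cord library 3 was the highest of its tissue for Ptges and Ptgs2 and for 7 of the 8 fibroblast genes (1190 CPM summed, against 515 and 410). The 8 mast cell genes also summed highest in paw (151 to 168 CPM), then DRG (90.1 to 124), then spinal cord (34.1 to 36.3). All 6 tested were called higher in DRG than in spinal cord (Tpsab1 from 9 reads against 0). Between paw and DRG 5 were called higher in paw. Kit was not called there, and alone was at 96.1 CPM in DRG. The 6 skeletal muscle genes summed to 13300 to 17000, 31.6 to 942 and 14.0 to 62.7 CPM, with overlap between DRG and spinal cord. The part of these cell types in these levels was not tested.

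Ptgds encodes lipocalin-type prostaglandin D synthase, a secreted protein that also carries lipids and is made by glia, leptomeninges and choroid plexus. It was the most abundant of the 10 transcripts per length in both nervous tissues. Spinal cord held 574, 744 and 638 CPM, DRG 479, 278 and 243 CPM, and paw 1.68, 0.802 and 2.24 CPM. The paw stood far below, at a 210-fold lower level than DRG (log2 -7.72 ± 0.40, adjusted p = 5.04e-08) and a 411-fold lower level than spinal cord (log2 -8.68 ± 0.41, adjusted p = 2.36e-08). DRG was below spinal cord by a smaller margin (log2 -0.97 ± 0.28, adjusted p = 0.0131), and this call was lost without DRG library 2 (log2 -0.84, adjusted p = 0.0567).

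The DRG libraries disagreed in Ptgds more than in most genes. Their highest-to-lowest ratio was 1.97, against a median of 1.19 over 11634 genes, and 98.0% of those genes had a smaller ratio. DRG library 1, the highest for Ptgds, also had the highest summed leptomeningeal and choroid plexus markers, at 124 CPM against 74.1 and 75.1, with none of the 11 genes at 0. It was also the highest DRG library for 7 of the 7 macrophage genes, for 7 of the 8 fibroblast genes (a summed 3360 CPM, against 2270 and 2280), and for the summed satellite glia and Schwann cell genes (28600 CPM, against 21600 and 22100). In spinal cord the library with the most of those meningeal markers was library 3, at 92.4 CPM against 49.1 and 57.2, while Ptgds was highest in library 2. The 8 oligodendrocyte genes, a list that shares 1 gene with that of satellite glia and Schwann cells, had the tissue order of Ptgds in their sum, at 20300 to 24400 CPM in spinal cord, 7100 to 9570 in DRG and 320 to 378 in paw. All 8 were called lower in DRG than in spinal cord, whereas between paw and DRG 4 were called lower in paw, Mog was called higher in paw, and Mobp, Ermn and Opalin were not called. Their part in the Ptgds levels was not tested.

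**Figure D1:**
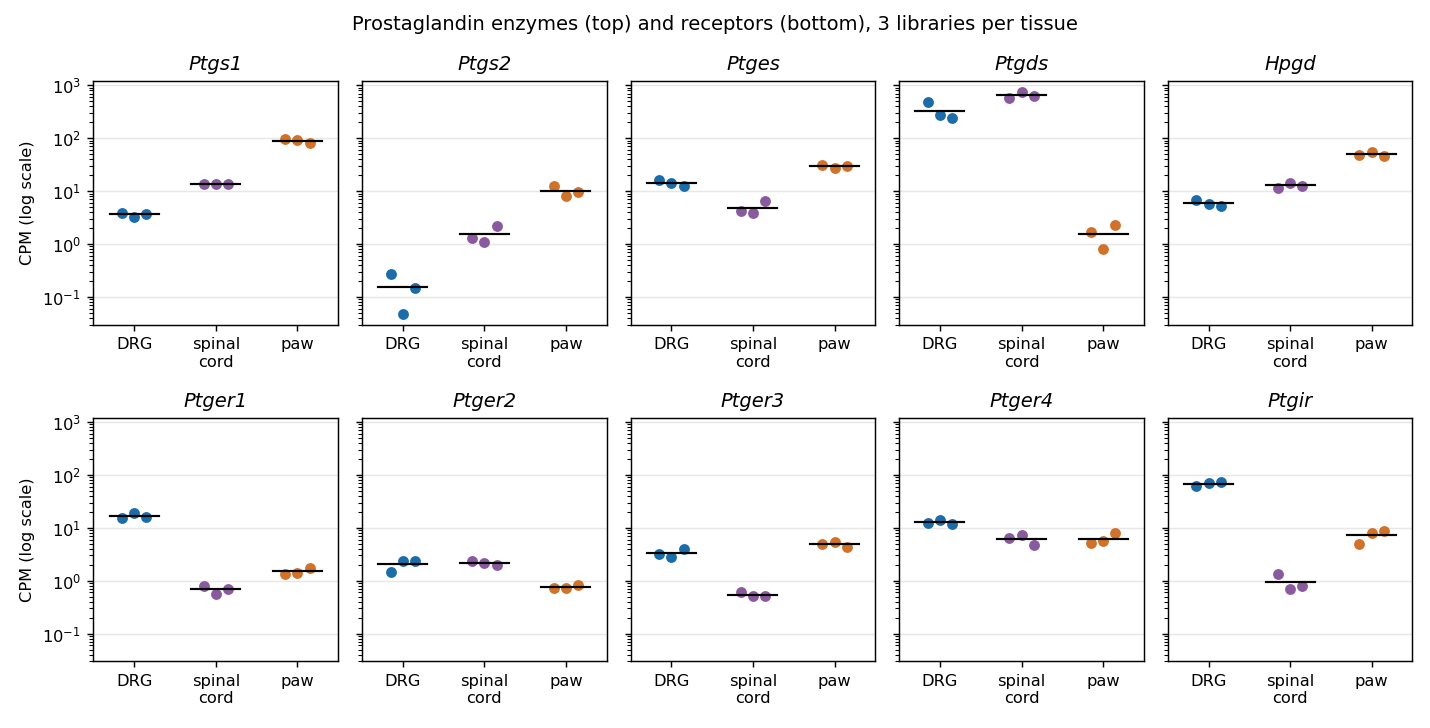
Each panel plots the CPM of 1 gene on a log scale, with a point for each of the 3 libraries of DRG, spinal cord and paw and a bar at their mean. Ptgs1, Ptgs2 and Hpgd climb from DRG to paw, Ptgds drops to 0.802 to 2.24 CPM in paw, and Ptger1 and Ptgir stand highest in DRG.

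Ratios between genes were taken per kilobase of exon within each library, which cancels library size. Ptgs1 exceeded Ptgs2 in all 9 libraries. The ratio of Ptgs1 to Ptgs2 was 11.7, 17.4 and 13.3 in paw and 16.2, 19.9 and 9.73 in spinal cord, and these overlap. In DRG it was 22.8, 106 and 39.3, each above every other library, with Ptgs2 read counts of 6, 1 and 3 behind them. The ratio of Ptges to Hpgd, a prostaglandin E synthase against the inactivating enzyme, set DRG apart. It was 1.11, 1.17 and 1.14 in DRG, 0.167, 0.124 and 0.239 in spinal cord and 0.302, 0.23 and 0.302 in paw. DRG was the tissue where Ptges exceeded Hpgd, and did so in each of its 3 libraries, while spinal cord and paw overlapped at 0.23 to 0.239. These ratios are a description without a test.

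**Figure D2:**
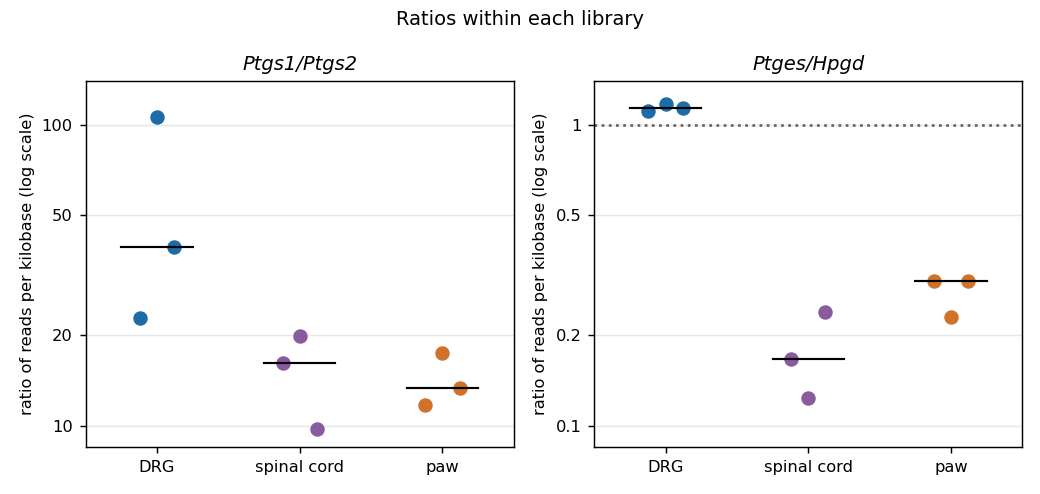
Points give the ratio of reads per kilobase between 2 genes in each library on a log scale, for Ptgs1 over Ptgs2 (left) and Ptges over Hpgd (right), with a bar at the median of each tissue. The Ptges to Hpgd ratio lies at 1.11 to 1.17 in DRG, above the dotted line at 1, and at or under 0.302 in the other tissues.

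Among the 5 receptors, Ptgir, which binds prostacyclin and couples to cyclic AMP, had the sharpest tissue difference. DRG held 61.7, 70.2 and 72.6 CPM, paw 5.03, 8.02 and 8.71 CPM, and spinal cord 1.35, 0.7 and 0.803 CPM, the last from 27, 15 and 14 reads. DRG stood above both other tissues in every library, and paw above spinal cord. DRG was 71.1-fold higher than spinal cord (log2 6.15 ± 0.25, adjusted p = 4.80e-09). Paw was 9.38-fold lower than DRG (log2 -3.23 ± 0.20, adjusted p = 3.41e-08) and 7.58-fold higher than spinal cord (log2 2.92 ± 0.27, adjusted p = 1.03e-06). Within the paw its highest-to-lowest ratio of 1.73 was wide, with 97.3% of 11771 genes showing a smaller one. Paw library 1, the lowest for Ptgir, also had the lowest sum of 6 endothelial genes (355 CPM, against 415 and 425) and the highest keratinocyte sum (50800 CPM, against 33600 and 36000), with no gene of either list at 0 in the paw libraries. The low sum was not particular to endothelium. Fibroblast (4860 CPM, against 6250 and 5380) and macrophage sums (235 CPM, against 270 and 238) were also lowest in that library. So were those of satellite glia and Schwann cells, microglia and skeletal muscle. The mast cell (168 CPM, against 158 and 151) and astrocyte sums (660 CPM, against 491 and 510) were highest there. The part of these cell types in this spread was not tested.

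Ptger1, the EP1 receptor for prostaglandin E, which raises intracellular calcium, was likewise highest in DRG. Its levels were 15.1, 19.0 and 16.1 CPM in DRG, 1.32, 1.42 and 1.77 CPM in paw, and 0.8, 0.56 and 0.689 CPM in spinal cord, with no overlap. DRG exceeded spinal cord 24.3-fold (log2 4.60 ± 0.20, adjusted p = 6.90e-09). Paw was below DRG (log2 -3.47 ± 0.19, adjusted p = 7.97e-09) and above spinal cord (log2 1.13 ± 0.24, adjusted p = 0.00102). The strand setting of the counting is not given in the sources used here, so the Ptger1 count is uncertain where gene models overlap.

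Both receptors shared DRG as their highest tissue with the sensory neuron markers. The 10 sensory neuron genes summed to 4280 to 5130 CPM in DRG, 3.89 to 5.12 in paw and 44.7 to 53.7 in spinal cord. Tac1 at 26.5 ± 3.93 CPM and Calca at 12.7 ± 3.09 CPM (SD, n = 3) made up most of the spinal cord sum. Scn9a and Tac1 were at 0 reads in paw library 3, and no other of the 10 was at 0 in any library. Between paw and spinal cord, 5 of the 10 markers were called lower in paw, near the 41.7% of all genes, and 0 higher, while Ptgir and Ptger1 were called higher in paw. The sum of 8 satellite glia and Schwann cell genes, of which 7 were called higher in DRG than in spinal cord and 1 lower, was also highest in DRG, at 21600 to 28600 CPM, against 1070 to 1260 in paw and 8490 to 13700 in spinal cord. The part of either cell type in the 2 receptors' levels was not tested. The ratio of Ptgir to Ptger1 per kilobase was 5.82, 5.25 and 6.41 in DRG, 5.42, 8.03 and 7.01 in paw, and 2.4, 1.78 and 1.66 in spinal cord, where both were at or under 1.35 CPM. The size of this ratio shares the uncertainty of the Ptger1 count.

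Ptger4 encodes EP4, a prostaglandin E receptor that raises cyclic AMP. It was highest in DRG, at 12.2, 14.2 and 11.9 CPM, with 6.5, 7.28 and 4.71 CPM in spinal cord and 5.27, 5.68 and 7.83 CPM in paw. DRG was above spinal cord by a log2 of 1.05 ± 0.19 (adjusted p = 6.78e-04), and paw was below DRG (log2 -1.03 ± 0.20, adjusted p = 4.52e-04). Spinal cord and paw overlapped and were not called different. Their log2 difference was 0.02 ± 0.20, with a 95% confidence interval of -0.43 to 0.46 (adjusted p = 0.937), and its sign turned when paw library 3 (-0.18) or spinal cord library 3 (-0.10) was left out.

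Ptger2 encodes EP2, the other cyclic AMP-raising receptor for prostaglandin E, and was scarce throughout. DRG held 1.47, 2.41 and 2.33 CPM, spinal cord 2.4, 2.19 and 1.95 CPM, and paw 0.718, 0.74 and 0.824 CPM. The paw libraries lay below all others, while DRG and spinal cord overlapped. Paw was lower than DRG (log2 -1.43 ± 0.28, adjusted p = 5.53e-04) and lower than spinal cord (log2 -1.51 ± 0.28, adjusted p = 3.52e-04). DRG and spinal cord were not called different, at a log2 of -0.08 ± 0.24 with a 95% confidence interval of -0.62 to 0.45 (adjusted p = 0.798), and the sign turned without DRG library 1 (0.12). The largest overlap with an antisense model covers 246 exonic bases of this gene, which leaves its count uncertain to at least that extent. The ratio of Ptger4 to Ptger2 per kilobase was 9.16, 6.53 and 5.68 in DRG, 8.12, 8.49 and 10.5 in paw, and 3.0, 3.68 and 2.67 in spinal cord, the lowest tissue in each of its libraries.

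Ptger3 encodes EP3, which lowers cyclic AMP. It was at 4.85, 5.37 and 4.36 CPM in paw, 3.22, 2.85 and 3.96 CPM in DRG, and 0.6, 0.513 and 0.516 CPM in spinal cord, the last from 12, 11 and 9 reads. Spinal cord was below both other tissues. The log2 difference was 2.60 ± 0.24 between DRG and spinal cord (adjusted p = 2.84e-06) and 3.14 ± 0.24 between paw and spinal cord (adjusted p = 1.61e-07). Between paw and DRG the groups did not overlap, and the difference was small (log2 0.54 ± 0.19, adjusted p = 0.0221). That call was lost without DRG library 1 (0.51, adjusted p = 0.0663), DRG library 2 (0.46, adjusted p = 0.0654) or paw library 2 (0.48, adjusted p = 0.0798).

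**Figure D3:**
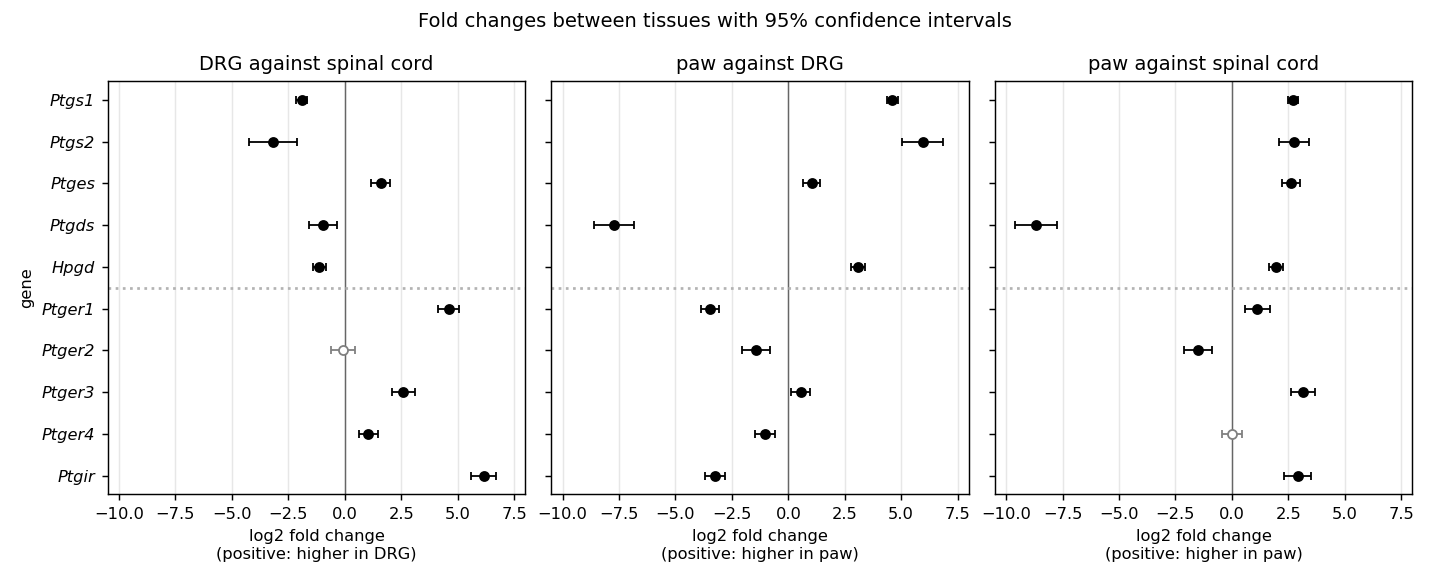
Points give the log2 fold change of each gene in the 3 tissue comparisons with its 95% confidence interval, enzymes above the dotted line and receptors below it, filled where called at an adjusted p under 0.05. The open points are Ptger2 between DRG and spinal cord (-0.08) and Ptger4 between paw and spinal cord (0.02).

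Counted over the 10 genes, DRG against spinal cord gave 5 called higher in DRG and 4 lower, where 29.0% and 30.6% of all genes tested were called in these directions. Of the 5 higher, 4 were receptors, and the 4 lower were enzymes. Paw against DRG gave 5 higher in paw, where the share over all genes was 39.7%, and 5 lower, where it was 40.8%. Here 4 of the 5 higher were enzymes and 4 of the 5 lower were receptors. Paw against spinal cord gave 7 higher, against 39.9% of all genes, and 2 lower, against 41.7%. With most of all genes called in each comparison, a call by itself says little about these 10. Their median log2 fold change was 0.48, -0.24 and 2.29 in the 3 comparisons, against -0.02, -0.02 and -0.03 over all genes tested. The median size of the change regardless of sign was 1.74, 3.15 and 2.67 on the log2 scale, against 0.54, 1.14 and 1.17. Each tissue enters 2 of these comparisons, which therefore share libraries.

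Levels per kilobase of exon allow the genes to be set side by side within a tissue. Among the 5 receptors, the DRG sum of 29.6 CPM per kilobase was made up of 69.6 ± 1.49% Ptgir, 13.0 ± 1.19% Ptger4, 12.0 ± 0.944% Ptger1, 3.5 ± 0.594% Ptger3 and 1.88 ± 0.343% Ptger2 (SD, n = 3). The ranges of Ptger4 and Ptger1 overlapped there, but Ptger4 was above Ptger1 within each library (13.6, 13.8 and 11.6% against 11.9, 13.0 and 11.1%). The Ptger1 count is uncertain where gene models overlap, while its level was divided by the full exon length. Its share and its place among the receptors are therefore uncertain in each tissue, and the other shares to the extent that they depend on it. In spinal cord the sum was 3.04 CPM per kilobase, and Ptger4 took 60.5 ± 5.52% of it and Ptger2 19.6 ± 1.54%. The other 3 receptors held 9.45 ± 2.84% (Ptgir), 5.58 ± 0.78% (Ptger3) and 4.86 ± 1.13% (Ptger1). The ranges of the last pair overlapped, with Ptger3 above Ptger1 within each library. The paw sum of 6.1 CPM per kilobase was split more evenly, with Ptgir at 35.5 ± 4.81%, Ptger4 at 30.7 ± 3.44% and Ptger3 at 25.1 ± 5.16%, whose ranges over the libraries overlap from one to the next. Ptger1 at 5.25 ± 0.391% and Ptger2 at 3.42 ± 0.364% made up the remainder. Among the 5 enzymes Ptgds held 97.5 ± 0.534% of the summed level per kilobase in DRG and 98.1 ± 0.155% in spinal cord, but 2.42 ± 1.21% in paw. There Ptgs1 led with 42.8 ± 1.17% and Hpgd followed with 40.5 ± 2.9%, which overlapped, ahead of Ptges with 11.2 ± 0.98% and Ptgs2 with 3.12 ± 0.658%.

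**Figure D4:**
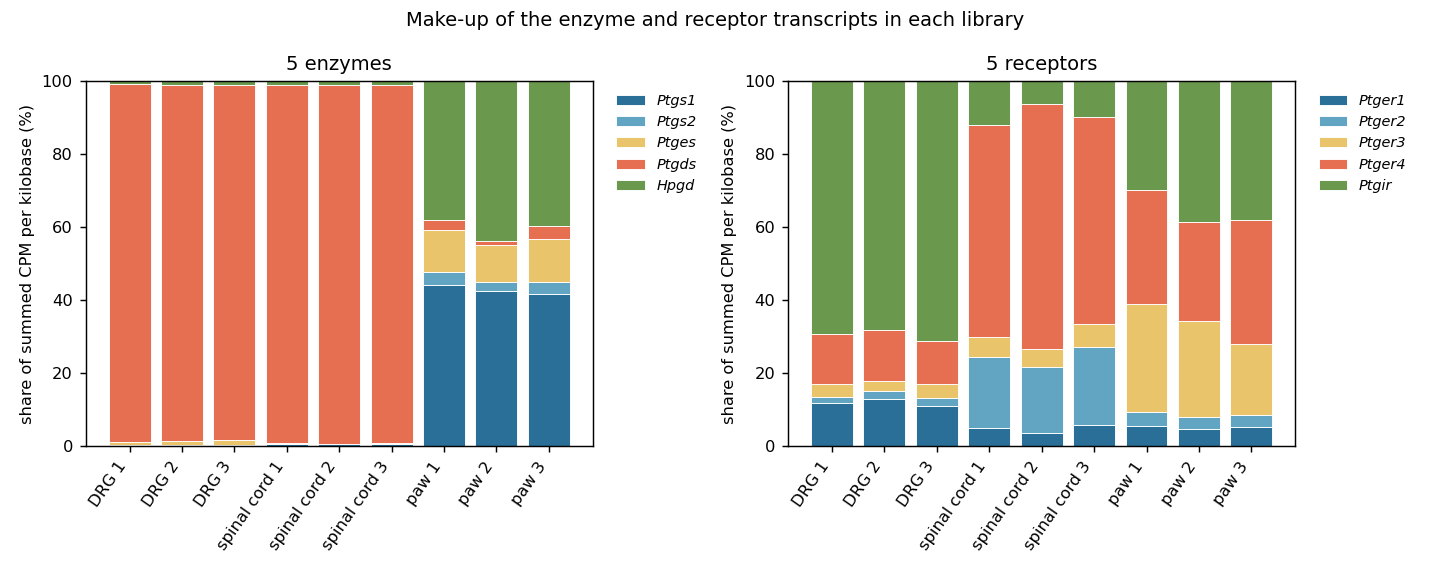
Stacked bars give, for each of the 9 libraries, the share of each enzyme (left) and each receptor (right) in the summed CPM per kilobase of the 5 genes, in percent. Ptgir fills 68.3 to 71.2% of the receptor bars in DRG and Ptger4 56.7 to 66.9% in spinal cord, while Ptgds fills the enzyme bars of both nervous tissues.

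Other genes of the pathway were taken from lists. Of the 4 other prostanoid receptors, 3 were tested, and all 3 were called higher in DRG than in spinal cord (29.0% of all genes) and lower in paw than in DRG (40.8% of all genes). Against spinal cord, paw gave 1 higher and 2 lower, where 39.9% and 41.7% of all genes were called. Ptgdr, the DP1 receptor for prostaglandin D, was at 42.1 ± 3.84 CPM in DRG, 0.26 ± 0.147 in paw and 1.21 ± 0.101 in spinal cord (SD, n = 3), a log2 difference of 5.11 ± 0.18 between DRG and spinal cord (adjusted p = 1.31e-09). Its tissue order, with DRG over spinal cord over paw, was not that of the synthase Ptgds, which was highest in spinal cord. Ptgfr, the receptor for prostaglandin F, was at 28.3 ± 1.87 CPM in DRG, 11.3 ± 1.13 in paw and 1.98 ± 0.433 in spinal cord. Tbxa2r, the thromboxane receptor, was at 16.1 ± 4.49, 2.08 ± 0.696 and 3.87 ± 1.13 CPM in the same tissues. Gpr44, the older symbol of Ptgdr2, had 5, 4 and 7 reads in all in DRG, spinal cord and paw and was not tested.

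Of 10 other genes of prostanoid synthesis and breakdown, 9 were tested and Akr1b3 had 0 reads throughout. Reads with several alignments were counted for no gene, so these 0 reads do not show that its transcript was absent. DRG against spinal cord gave 2 higher and 3 lower, paw against DRG 4 higher and 4 lower, and paw against spinal cord 4 higher and 3 lower. Over all genes tested the shares were 29.0% and 30.6%, 39.7% and 40.8%, and 39.9% and 41.7%, and these counts lie near them. Hpgds, the haematopoietic prostaglandin D synthase of immune cells, was highest in paw, at 11.1 ± 2.7 CPM against 4.36 ± 0.633 in spinal cord and 1.54 ± 0.222 in DRG, whereas Ptgds was lowest there. The gene listed as 2810405K02Rik, also called Fam213b and known as a prostamide and prostaglandin F synthase, was at 164 ± 1.29 CPM in paw, 53.6 ± 9.15 in spinal cord and 36.8 ± 3.51 in DRG. Ptgr1, a reductase that further inactivates the product of Hpgd, was at 34.0 ± 4.62 CPM in paw, 14.7 ± 2.15 in DRG and 2.76 ± 0.376 in spinal cord. Ptgr2, a related reductase, varied less, from 45.6 ± 1.99 CPM in paw to 70.9 ± 1.25 in spinal cord, with DRG at 52.9 ± 1.35. Ptgis, the prostacyclin synthase that makes the ligand of Ptgir, is named outside the rule after its values were seen. It was at 17.1 ± 3.85 CPM in paw, 2.62 ± 0.782 in spinal cord and 1.89 ± 0.658 in DRG, where its receptor was highest.

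Of 14 genes of arachidonate release and prostanoid transport, 12 were tested. DRG against spinal cord gave 5 higher and 5 lower, where 29.0% and 30.6% of all genes were called. Paw gave 8 higher and 2 lower against each of the other tissues, where the shares over all genes were 39.7% and 40.8% against DRG and 39.9% and 41.7% against spinal cord. The 8 include Pla2g2e, with 0 reads in DRG and 1 in spinal cord, which was tested only because of its reads in paw. Mgll, the monoacylglycerol lipase that frees arachidonic acid from an endocannabinoid, had the highest mean CPM of the 12, without correction for transcript length. It was at 557 ± 14.9 CPM in paw, 146 ± 6.69 in DRG and 94.0 ± 3.64 in spinal cord. Pla2g2f, a secreted phospholipase, was at 502 ± 58.6 CPM in paw and 3.01 ± 1.11 in spinal cord, and DRG held 8, 4 and 2 reads. Pla2g4e, a cytosolic phospholipase, was also highest in paw, at 161 ± 23.3 CPM against 7.13 ± 0.429 in spinal cord and 2.66 ± 0.5 in DRG. Pla2g6, the calcium-independent phospholipase, had the reverse order, at 65.2 ± 7.56 CPM in DRG, then 36.4 ± 2.77 in spinal cord, then 12.6 ± 0.723 in paw. Pla2g4a, the classical cytosolic phospholipase that feeds the cyclooxygenases, and Slco2a1, the transporter that takes up prostaglandins for breakdown by Hpgd, are named outside the rule after their values were seen. Pla2g4a had the order of Ptgs1 and Ptgs2, at 21.6 ± 3.35 CPM in paw, 11.6 ± 1.2 in spinal cord and 2.48 ± 0.995 in DRG. Slco2a1 had that of Ptges, at 46.3 ± 3.69 CPM in paw, 9.1 ± 2.17 in DRG and 0.972 ± 0.358 in spinal cord.

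**Figure D5:**
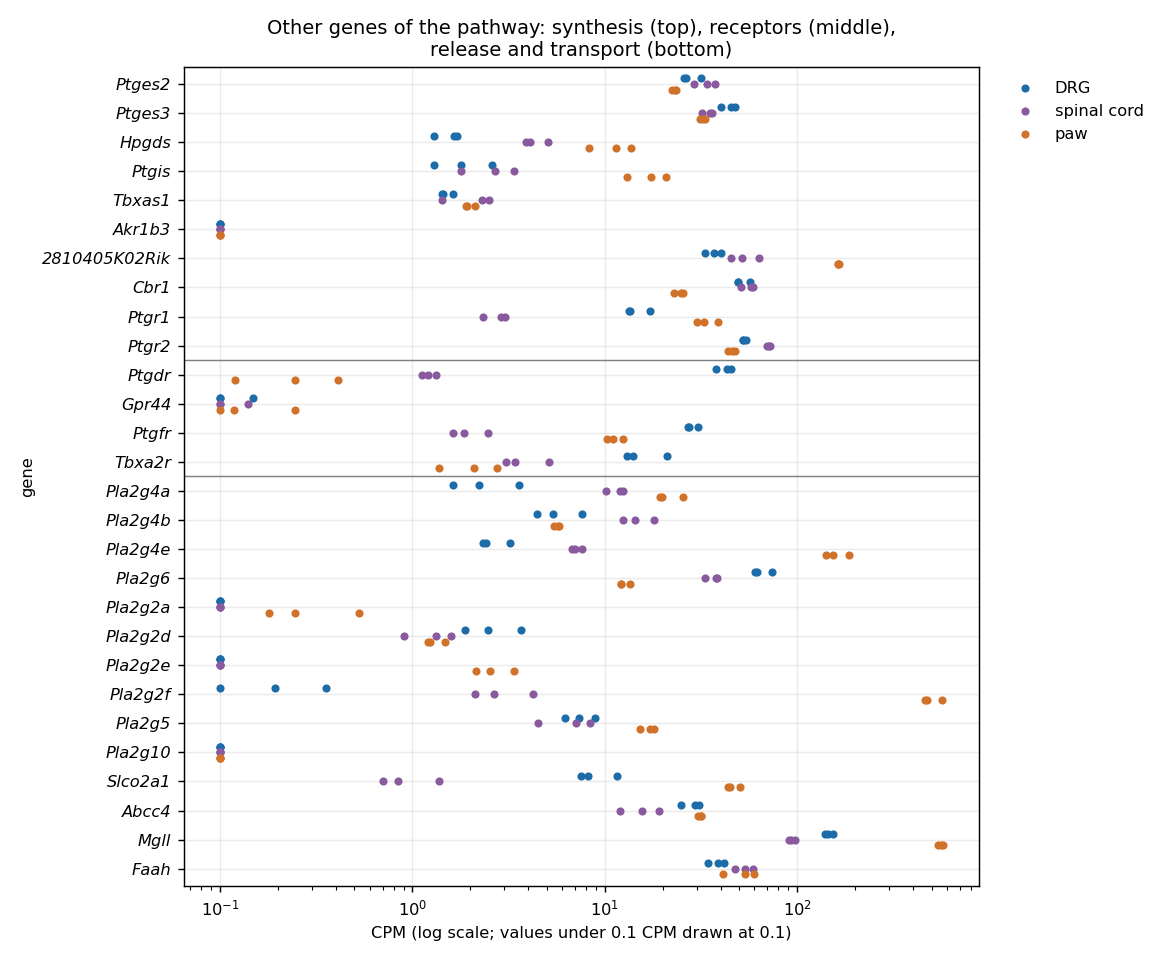
Points give the CPM of the other synthesis genes (top), prostanoid receptors (middle) and release and transport genes (bottom) in each library on a log scale, coloured by tissue, with values under 0.1 drawn at 0.1. Ptgdr, Ptgfr and Tbxa2r lie highest in DRG, and Pla2g2f spans from 0.216 CPM in DRG to 502 CPM in paw on average.

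For each gene the most alike profiles were sought among 12794 genes of at least 5 CPM on average, by the root mean square difference of log2 CPM centred on each gene over the 9 libraries. Because tissues dominate this measure and libraries are shared, it is a description. Nearest to Ptgs1 were Igfbp2 (0.129), Trps1 (0.162) and Il18 (0.195), and Il18 was also among those of Ptgs2 (0.438), after Col4a6 (0.322) and Aspg (0.401). Il18, an interleukin-1 family cytokine, was at 102 ± 6.2 CPM in paw, 16.0 ± 0.659 in spinal cord and 3.24 ± 0.406 in DRG. Hpgd was closest to Ppp2r3a (0.124), Lrig3 (0.164) and Nmnat3 (0.166). Ptges was closest to Slc25a24 (0.116), Cav1 (0.116) and Rarg (0.125). Ptgds had no near neighbour on this scale, with A930011O12Rik at 0.355, Mmd2 at 0.376 and 2900011O08Rik at 0.386.

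The receptors' neighbours differed from one another. For Ptgir they were Ppm1j (0.277), Lpar3 (0.403), a lysophosphatidic acid receptor at 62.2 ± 13.1 CPM in DRG and 0.751 ± 0.0519 in spinal cord, and Ccdc68 (0.558). For Ptger1 they were Dok4 (0.235), 1700001L05Rik (0.248) and Trpc6 (0.256), a cation channel at 15.7 ± 0.84 CPM in DRG. Ptger2 was nearest to Morn2 (0.124), Tspan5 (0.131) and Eif4a2 (0.132), Ptger3 to Clic1 (0.192), Emp3 (0.21) and Efna1 (0.224), and Ptger4 to 0610010O12Rik (0.136), Mesdc1 (0.14) and Pdlim7 (0.154).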

How the data were processed

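Polyadenylated RNA from about 500 ng of total RNA per sample was sequenced with a stranded kit as 50 bp single-end reads, per the labels' protocols. Per the submitters' processing notes, the tools were TopHat2, HTSeq and bcl2fastq and the build mm9. Versions, gene models and strand setting were not given in the sources used here, which makes overlapping genes uncertain. The deposited files hold unnormalised read counts, one whole number per gene symbol, and 5 summary rows for reads assigned to no gene were left out of library sizes. These rows held 58.1 to 59.3% of each file in paw, 46.2 to 47.7% in spinal cord and 42.9 to 43.3% in DRG, and reads from near-identical genes fall there.

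From these counts edgeR 4.0.16 under R 4.3.3 fitted all 9 libraries with tissue as factor (filterByExpr, TMM, robust glmQLFit, glmQLFTest, 6 residual degrees of freedom). Groups follow the tissue named in each title, and no 2 libraries were alike within sampling noise (chi-square per degree of freedom within a tissue 7.3 to 36.7). Standard errors were taken as the size of the log2 change over the square root of F. CPM uses TMM library sizes, and exon lengths come from GENCODE for GRCm38, a later build than mm9. Reads carried no molecular identifiers, so the floor covers counting error only. DESeq2 1.42.0 and limma 3.58.1 were alternatives, beside other scaling factors, no filter on low counts, only the compared tissues, a replicate block and leaving out libraries. The fit was tested on simulated counts with known changes.

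The 10 genes, the pathway lists and the 13 marker lists were chosen with earlier results of these data known. Up to 4 genes per pathway list are named, the one of highest mean CPM and those called in all 3 comparisons, and up to 3 nearest profiles per gene. Some values that bear on overlapping genes are not reported here.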

Additional observations from a re-analysis of the deposited data

How the results depend on the processing

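The numbers of genes called among the 10, in each direction and comparison, stayed within 1.5 times the reported ones in 108 of 108 recalculations, with other tools, scalings and filters, a replicate block, and libraries left out. With the replicate block the counts were 5 higher and 4 lower in DRG against spinal cord, 5 and 5 in paw against DRG, and 7 and 2 in paw against spinal cord, and no call of the 10 genes changed. Same-numbered libraries of different tissues had correlations of deviations from -0.13 to 0.271. Differently numbered libraries were not correlated, so these values cannot decide whether the numbers pair libraries. The main fit used no block because the labels do not say that a number marks 1 mouse. Of 540 recalculated fold changes, 530 kept their direction and their side of the threshold.

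Those that turned were near 0. Ptger2 between DRG and spinal cord ranged from -0.20 to 0.12 with single libraries left out and was 0.096 without DRG libraries 1 and 2. Ptger4 between paw and spinal cord ranged from -0.18 to 0.18 with single libraries left out (-0.10 without spinal cord library 3) and was -0.19 without spinal cord libraries 1 and 3. These joint omissions were added after seeing the data. Ptger3 between paw and DRG also lost its call without DRG libraries 1 and 2 (log2 0.285, adjusted p = 0.392, with DRG library 3 alone assumed to vary like the other groups). Fewer samples enter each of these fits. Upper quartile scaling moved the median of all genes between paw and DRG from -0.02 to 0.10, and no direction among the 10 genes turned with it. Depth limits Ptgs2 in DRG, with 6, 1 and 3 reads.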

Other observations

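Arachidonic acid also feeds the lipoxygenases, which make leukotrienes and epidermal lipids, and 12 genes of that branch were tested. Paw gave 9 higher and 1 lower against DRG, where 39.7% and 40.8% of all genes were called, and 9 higher and 1 lower against spinal cord, where the shares were 39.9% and 41.7%. DRG against spinal cord gave 1 higher and 3 lower, where the shares were 29.0% and 30.6%. The 8 not called include Ltb4r2, which had 0 reads in both tissues and was tested only because of its reads in paw. Ltb4r2 is also among the 9 called higher in paw. Alox12b and Aloxe3, which act in turn on lipids of the skin barrier, were at 440 ± 82.4 and 222 ± 35.5 CPM in paw (SD, n = 3), against 1.68 ± 0.202 and 2.89 ± 0.299 in spinal cord and 0.745 ± 0.153 and 0.394 ± 0.0444 in DRG. The 8 keratinocyte genes were summed at 33600 to 50800 CPM in paw and at or under 37.7 CPM in the other tissues, and all 8 were called higher in paw than in either. Between DRG and spinal cord 3 of the 8 were called lower in DRG and 5 were not called. Their part in the levels of Alox12b and Aloxe3 was not tested. Ltc4s, the leukotriene C synthase, was at 3.22 ± 0.453 CPM in paw, 1.06 ± 0.0671 in spinal cord and 0.174 ± 0.027 in DRG.

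The following genes are named outside the rule, after their values were seen. Ltb4r2, a low-affinity leukotriene B receptor, had 190, 180 and 161 reads in the paw libraries and 0 reads in all 6 libraries of the other tissues. Cysltr2, a receptor for cysteinyl leukotrienes, was called higher in DRG than in either other tissue, at 4.24, 2.56 and 4.8 CPM, against 0.479, 0.555 and 0.294 CPM in paw and 0.3, 0.0933 and 0.172 CPM in spinal cord. It exceeded spinal cord by a log2 of 4.32 ± 0.42 (edgeR, adjusted p = 4.37e-06) and was lower in paw than in DRG (log2 -3.11 ± 0.38, adjusted p = 1.11e-05). Alox5, the 5-lipoxygenase of myeloid cells, was uneven in spinal cord, at 6.25, 1.68 and 2.93 CPM. Spinal cord library 1, the highest of these, also had the most of 7 neutrophil and red cell genes, at a summed 883 CPM against 227 and 272, and was highest for each of the 7, and their part in the Alox5 level was not tested. Lta4h, which makes leukotriene B, was called in none of the 3 comparisons, with 57.8 ± 3.82 CPM in DRG, 59.9 ± 5.41 in paw and 59.6 ± 5.02 in spinal cord.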
